A study of Mus musculus with 18 samples.

Results

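In 5 of 18 RNA-seq libraries of BMMC, mast cells grown in culture from mouse bone marrow, over 20% of all read counts lay on 15 genes of the mitochondrial genome, and these 5 libraries were compared with the other 13. They were chosen by that measured share, which was the summed count of the 13 mitochondrial mRNAs and the 2 mitochondrial rRNAs as percent of the library's total count. The share was 27.0% in the KO 0 library numbered 414, 33.6% in WT 20 numbered 4120, 34.5% in KO 60 numbered 414, 38.9% in WT 0 numbered 4120 and 41.7% in WT 60 numbered 414. In the other 13 libraries it ran from 4.07% to 17.7%, with a median of 8.17%. The library just outside the threshold was WT 0 numbered 414, at 17.7%, and the one just inside was KO 0 numbered 414, at 27.0%. These shares define the 2 sets and are a description, with no test.

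Mast cells are tissue immune cells that store mediators in granules and respond to IgE and to microbial ligands, and cultures grown from the marrow of mouse leg bones are a common model of them. Both genotypes carried Sirt6 flox/flox alleles, in which Cre recombinase can delete part of Sirt6, the gene of a nuclear NAD-dependent deacetylase. WT cells carried these alleles alone, and KO cells carried LysM-Cre in addition, which expresses Cre from the myeloid lysozyme M promoter. Both genotypes were sampled at levels of 0, 20 and 60, with no unit in the labels. LPS, which acts through TLR4, is the labelled treatment at 20 and 60, but the title of the series speaks of FcεRI, to which IgE binds. Age was not given. There were thus 6 groups of 3 libraries, and in every group these carried the numbers 4120, 414 and 6110. Nothing in the labels ties a number to an animal or a culture, and the p-values below reflect the spread of these samples, which may be technical.

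Exactly 1 high-share library lay in each of 5 groups, and none in KO 20. Number 414 held 3 of the 5 (WT 60, KO 0 and KO 60), number 4120 held 2 (both WT), and number 6110 held none. Libraries numbered 414 held the X-inactivation transcript Xist and those numbered 4120 and 6110 held Y-linked Ddx3y, so the sets are not balanced for number or for the sex of the cells. Whole-gene Sirt6 counts ran from 12.7 to 25.9 CPM (a gene's count per 1000000 counts) in the libraries labelled KO and from 11.7 to 20.3 in those labelled WT, so this gene did not separate the genotypes, which are given here as labelled. Between the high-share and the other libraries Sirt6 had a log2 difference of −0.31 (adjusted p = 0.123). All 10 mast cell markers were measured, and their summed level was 23591 to 47585 CPM in the high-share libraries and 30673 to 55693 CPM in the others. Total counts ran from 20026054 to 26697960 in the high-share libraries and from 25642829 to 42265435 in the others.

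**Figure D1:**
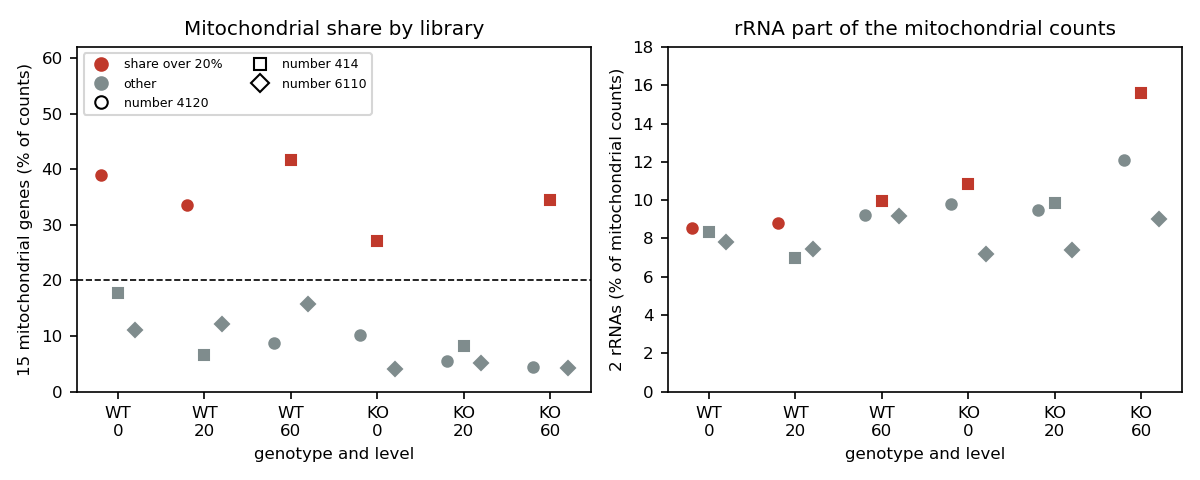
The left panel shows the percent of each library's counts on the 15 mitochondrial genes, by genotype and level, with the 20% threshold as a dashed line. The right panel shows mt-Rnr1 and mt-Rnr2 as percent of the mitochondrial counts. Each point is 1 library, red over 20%, with its shape giving the number. The 5 red points sit between 27.0% and 41.7%, and the grey ones between 4.07% and 17.7%.

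The mitochondrial genome is a small circle transcribed from both strands into long precursors. Excision of the tRNAs that punctuate these precursors releases the mRNAs and rRNAs. Its mRNAs encode subunits of complexes I, III and IV of the respiratory chain and of the ATP synthase. The other subunits, and every protein that copies, transcribes and translates the mitochondrial genome, are encoded in the nucleus. A high share of mitochondrial counts is widely used as a quality measure of RNA-seq libraries.

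All 15 genes had a higher share of the total counts in every high-share library than the median of the others. The ratio of the median in the 5 libraries to the median in the 13 ran from 3.79 for COX2 to 6.05 for ND3. COX1, a core subunit of complex IV, was the most counted in every set. It took 12.7%, 14.9%, 16.4%, 17.9% and 20.0% of all counts in KO 0, WT 20, KO 60, WT 0 and WT 60, against a lowest value of 1.74%, a median of 3.76% and a highest value of 8.71% in the others. COX1 alone thus took more of each high-share library than of any other library. These genes made the choice of libraries, so the sizes are a description.

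The composition within the mitochondrial counts changed far less than their sum. COX1 was 44.4% to 48.0% of the mitochondrial counts in the high-share libraries and 40.9% to 49.3% in the others, and CYTB, the mitochondrial subunit of complex III, was 6.48% to 8.68% against 6.46% to 9.16%. Per kilobase of gene, COX1 had a median of 30.3% of the mitochondrial counts in the high-share libraries and 27.7% in the others, followed by COX2 with 9.99% and 10.7%. CYTB had 6.23% and 7.11% on this scale, and ATP6 had 6.21% and 7.73%. ATP6 and its neighbour COX3 were lower in composition, with medians of 4.23% and 4.28% of the mitochondrial counts against 5.26% and 4.65%, but their ranges overlapped between the sets. ND6 is the mRNA read from the opposite strand to the other mRNAs, and it was 1.63% of the mitochondrial mRNA counts in WT 20, 1.41% in WT 0, 1.66% in WT 60, 1.72% in KO 0 and 1.35% in KO 60. The other libraries ran from 1.15% to 1.90% with a median of 1.62%. The mean difference within groups was −0.023 percentage points. This is given without a test, since these genes chose the libraries.

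Within its group, each high-share library had a larger part of its mitochondrial counts on the 2 rRNAs. mt-Rnr1 and mt-Rnr2 together were 8.57% in WT 0, 8.82% in WT 20, 9.97% in WT 60, 10.8% in KO 0 and 15.6% in KO 60, against a lowest value of 6.97%, a median of 9.01% and a highest value of 12.1% in the others. The 2 sets overlapped, but each high-share library was above the mean of the other 2 libraries of its group, in 5 of 5 groups. The mean difference within groups was 2.05 percentage points, and 1.28 with the replicate number as a block. Both rRNAs are among the 15 genes, so these values have no test either.

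The 22 mitochondrial tRNA genes were not among the 15 genes that chose the libraries. They are cut from the long precursors of the same genome, so their levels are also given without a test. The 3 shown here are among the most counted, or show the largest difference. They are the reference genes in GRCm38 (sequence from GENCODE, coordinates from RefSeq), written as DNA 5′ to 3′ with the anticodon in capitals, which was located as the 3 middle letters of a loop of 7 between paired stems.
TrnP (chrMT:15356-15422), the proline tRNA: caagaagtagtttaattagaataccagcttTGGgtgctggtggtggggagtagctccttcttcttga
TrnL1 (chrMT:2676-2750), a leucine tRNA: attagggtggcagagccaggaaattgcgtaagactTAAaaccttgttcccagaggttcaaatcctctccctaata
TrnS1 (chrMT:6870-6938), a serine tRNA: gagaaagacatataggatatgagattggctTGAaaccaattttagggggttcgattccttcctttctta
TrnL1 lies between mt-Rnr2, which ends at 2675, and ND1, which starts at 2751, and TrnS1 overlaps the end of COX1 at 6872.

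All 22 mitochondrial tRNA genes were higher in the high-share library than in both other libraries of its group, in all 5 groups, with log2 differences of 1.62 to 2.53 and a median of 2.09. TrnP was at 86.5 CPM in KO 0, 134 in WT 20, 173 in KO 60, 204 in WT 0 and 181 in WT 60, against a lowest value of 10.5, a median of 28.2 and a highest value of 51.0 CPM in the others. TrnS1 was at 824 to 1605 CPM in the high-share libraries and at 85.1 to 484 CPM in the others. CPM here and below are relative to the counts outside the 15 genes, on library sizes scaled without them. Their ratio to the genes that defined the sets overlapped between the sets: there were 3.99 to 5.27 tRNA counts per 1000 counts of the 15 genes in the high-share libraries and 4.29 to 6.01 in the others. Reads of the 15 genes and of these tRNAs can also be shared with copies of mitochondrial DNA in the nuclear genome, and how the authors' counting treated such reads is not given in the sources used here.

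Outside the 15 genes, the difference between the sets was broad. Of 17727 genes tested, the 22 tRNA genes included, 1627 rose (9.18%) and 701 fell (3.95%) in the high-share libraries at a Benjamini-Hochberg adjusted p under 0.05 in edgeR's quasi-likelihood test, with 1 mean per genotype-and-level group. The median log2 difference of all genes tested was −0.02. In all 5 groups the high-share library lay above both other libraries of the group for 1064 genes (6%) and below both for 576 (3.25%). Genes could pass the filter on low counts through the high-share libraries alone: 954 of the tested genes did not pass on the other 13 libraries, and of these 635 were called higher and 0 lower. A gene kept that way had to be higher, so those 635 calls are not evidence. Among the 16773 genes that passed on the other 13 libraries alone, 992 rose and 701 fell. The 1064 genes above also include genes kept through the high-share libraries. Of the 16773, the high-share library lay above both others in all 5 groups for 703 and below both for 576. The number of calls varied with the libraries included. It fell to 923 without KO 60 numbered 414, and to 0 to 31 when all libraries of 1 number were left out. Fewer libraries lower this number by themselves, and this was not separated from which libraries were left out. With a term for the 8 libraries that held liver transcripts, which include all 5, the number of calls was 0. This term and the high-share term coincide in WT and in KO 0, so that 0 does not separate them.

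**Figure D2:**
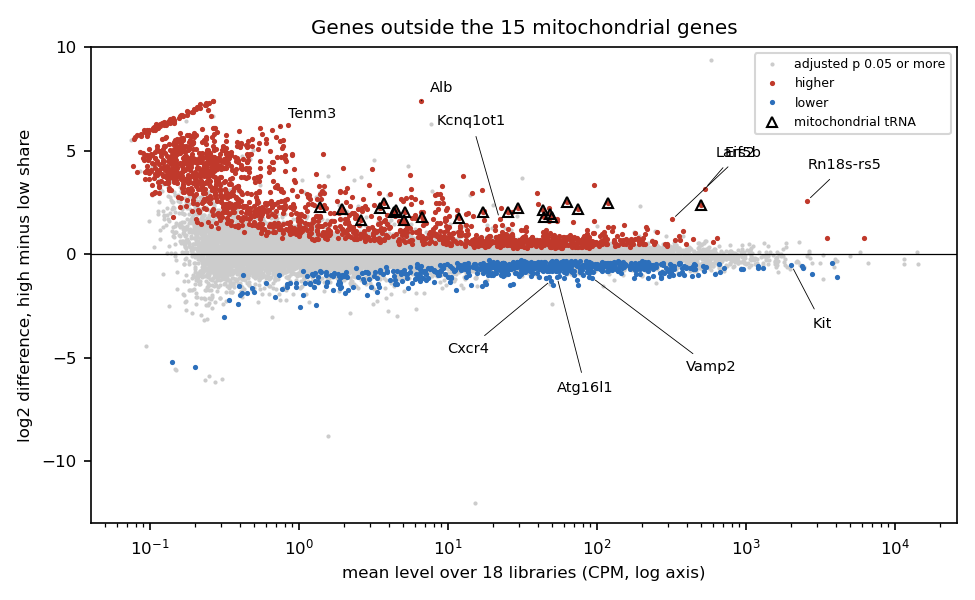
Each point is 1 of the 17727 genes tested, with its mean level over the 18 libraries in CPM on a log axis and its log2 difference between the high-share and the other libraries given genotype and level. Red points rose and blue points fell at an adjusted p under 0.05, and triangles are the 22 mitochondrial tRNAs. Falls outnumber rises above 100 CPM (157 against 79). Of the 860 rises below 1 CPM, 225 are of genes that pass the filter on the other 13 libraries alone.

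Among these 16773 genes the direction of the calls differed by the level of the gene. Below a mean of 1 CPM, 225 of 3212 genes rose and 21 fell, with a median log2 difference of 0.15. With the genes kept through the high-share libraries these counts are 860 and 21 of 4165. From 5 to 20 CPM the calls were 190 higher and 127 lower of 3345, from 20 to 100 CPM 280 and 318 of 5109, and above 100 CPM 79 and 157 of 2004, with a median of −0.15. By class of gene, 219 of 2232 lncRNAs rose and 64 fell, 90 of 1120 pseudogenes rose and 19 fell, and 632 of 13024 protein-coding genes rose and 602 fell. Pseudogenes and lncRNAs can share reads with their parent or overlapping genes.

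Among protein-coding genes of at least 5 CPM, 433 of 9619 rose and 556 fell, and the split followed base composition. In the 25% of these genes with the lowest GC content of the transcript (33.0% to 45.9%) 142 rose and 38 fell of 2389. In the 25% with the highest GC content (55.2% to 72.9%) 70 rose and 265 fell of 2390. The median log2 differences of these 2 classes were −0.01 and −0.17. GC content and length were available for 88.5% of the tested genes. Transcript length averaged over all counts did not separate the sets. It was 2656 to 2901 bases in the high-share libraries and 2551 to 2995 in the others, and the mean difference within groups was 21.7 bases (exact permutation test moving the high-share label within each group, two-sided, p = 0.819). The adjusted p was 0.831, by Benjamini-Hochberg over 6 single values computed this way, of which the 2 within the mitochondrial counts are only described.

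More genes were detected in the high-share libraries although these had fewer counts. Genes of at least 1 CPM numbered 13366 in KO 0, 13726 in WT 20, 13395 in KO 60, 14369 in WT 0 and 14145 in WT 60, against a lowest value of 12721, a median of 13133 and a highest value of 13668 in the others. The ranges overlapped, but each high-share library exceeded the mean of the other 2 libraries of its group. The mean difference within groups was 580 genes (exact permutation test, two-sided, p = 0.0165, adjusted 0.0329), and 419 with the replicate number as a block, where the call was lost (exact permutation test, p = 0.0206 before adjustment). The adjusted value of 0.0329 is lowered by single values with a smaller p that depend on the 15 genes, so it is too small. At 5 CPM in place of 1 the difference was 196 genes (exact permutation test, p = 0.107). After every library was thinned to 12233433 counts outside the 15 genes, 20613 to 22546 genes had at least 1 count in the high-share libraries and 19004 to 20573 in the others, so that the sets did not overlap. The 50 most counted genes took 16.6% to 19.4% of the counts in the high-share libraries and 16.1% to 20.7% in the others (exact permutation test, p = 0.745, adjusted 0.831).

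Some of the genes that appeared in this way are best known from neurons. Tenm3, which encodes a teneurin that guides neuronal connections, had 8 counts in KO 0, 46 in WT 20, 33 in KO 60, 61 in WT 0 and 49 in WT 60, and 10 counts in all 13 other libraries together, of which 4 held any. That is 2.54 CPM over the 5 libraries and 0.03 CPM over the 13. Myt1l, a neuronal transcription factor, had 107 counts in the 5 libraries and 5 in the 13, and Rbfox3, a neuronal splicing factor, had 54 and 3. Snap25, a component of the synaptic fusion machinery, had 43 counts in 4 of the 5 libraries and 2 in the 13. Other genes of the nervous system did not share this pattern: Mbp, a myelin protein that blood cells also express, was at 50.9 CPM over the 5 libraries and 56.6 CPM over the 13, and Gfap, an astrocyte filament, had 3 counts against 20. Tenm3, Myt1l, Rbfox3 and Snap25 passed the filter through the high-share libraries alone. This list of 12 genes was put together after their values were seen, so it has no test.

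The largest rises of genes of at least 5 CPM, outside the mitochondrial tRNAs, included several short or nuclear non-coding RNAs. Rn18s-rs5, an 18S ribosomal RNA sequence, was at 10399 CPM in KO 0, 3710 in WT 20, 11622 in KO 60, 3039 in WT 0 and 2158 in WT 60, against a lowest value of 672, a median of 839 and a highest value of 4900 CPM in the others (log2 difference 2.59 ± 0.46 SE, adjusted p = 0.003). The highest of the others, at 4900 CPM, was KO 20 numbered 414, so all 3 KO libraries of that number were high. Rn7sk, the RNA that holds the elongation factor P-TEFb inactive, was at 8.66 to 47.1 CPM in the high-share libraries and at 2.50 to 8.95 CPM in the others (log2 difference 1.76, adjusted p = 0.014). Bc1, a short cytoplasmic RNA of neurons, was at 7.93 to 73.4 CPM and 0.20 to 9.63 CPM (3.31, adjusted p = 0.015). The authors' libraries were made for mRNA, so reads on these RNAs are a small part of the RNA present. Ribosomal and other repeated sequences have many near-identical copies, and their counts are uncertain.

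Kcnq1ot1, a long nuclear RNA that silences imprinted genes, separated the sets with no overlap. It was at 39.8 CPM in KO 0, 43.7 in WT 20, 52.6 in KO 60, 38.1 in WT 0 and 46.8 in WT 60, and at 7.09 to 25.7 CPM with a median of 13.2 in the others (log2 difference 1.69 ± 0.21 SE, adjusted p = 0.001, block 1.42, adjusted p = 0.003). Dnm3os, a non-coding RNA that hosts microRNAs, was at 22.0 to 45.3 CPM against 0.48 to 11.4 CPM (3.78, adjusted p = 0.002). A rise was not general to nuclear RNAs: Malat1 had a log2 difference of −0.07 (adjusted p = 0.871) and Neat1 one of −0.23 (adjusted p = 0.584). The latter 2 were chosen after their values were seen.

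Among the protein-coding rises, Lars2, the mitochondrial leucyl-tRNA synthetase, was at 2491 CPM in KO 0, 371 in WT 20, 3359 in KO 60, 325 in WT 0 and 227 in WT 60, against 71.8 to 1524 CPM with a median of 96.9 (3.16 ± 0.70 SE, adjusted p = 0.01). The log2 difference was 1.58 in WT and 4.85 in KO, and 1.10 with 1 block per number within each genotype (adjusted p = 0.005). For Rn18s-rs5 these were 1.64, 3.71 and 1.22 (adjusted p = 0.006). The 3 highest libraries of Lars2, 1 of them outside the high-share set, were those of KO number 414, as for Rn18s-rs5. Eif5b, a GTPase that joins the ribosomal subunits at initiation, was at 475 to 970 CPM in the high-share libraries and at 115 to 388 CPM in the others, with no overlap (1.68 ± 0.28 SE, adjusted p = 0.002). Zbtb20, a transcriptional repressor, was at 21.6 to 93.9 CPM against 4.22 to 28.9 CPM (2.02, adjusted p = 0.002), and Mettl1, the enzyme that places 7-methylguanosine on tRNAs, at 7.81 to 23.2 CPM against 2.49 to 9.40 CPM (1.71, adjusted p = 0.002). Nrp, Lect2 (a liver-secreted chemotactic factor), Dnah7a, Gpr160 and Ccl6 were also among the largest rises, with log2 differences of 1.68 to 2.83. Of these, Ccl6, a chemokine of myeloid cells, was at 52.3 and 95.8 CPM in the 2 KO libraries and at 1.78 to 4.08 CPM in the 3 WT ones, and its call was lost with the block (adjusted p = 0.182).

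**Figure D3:**
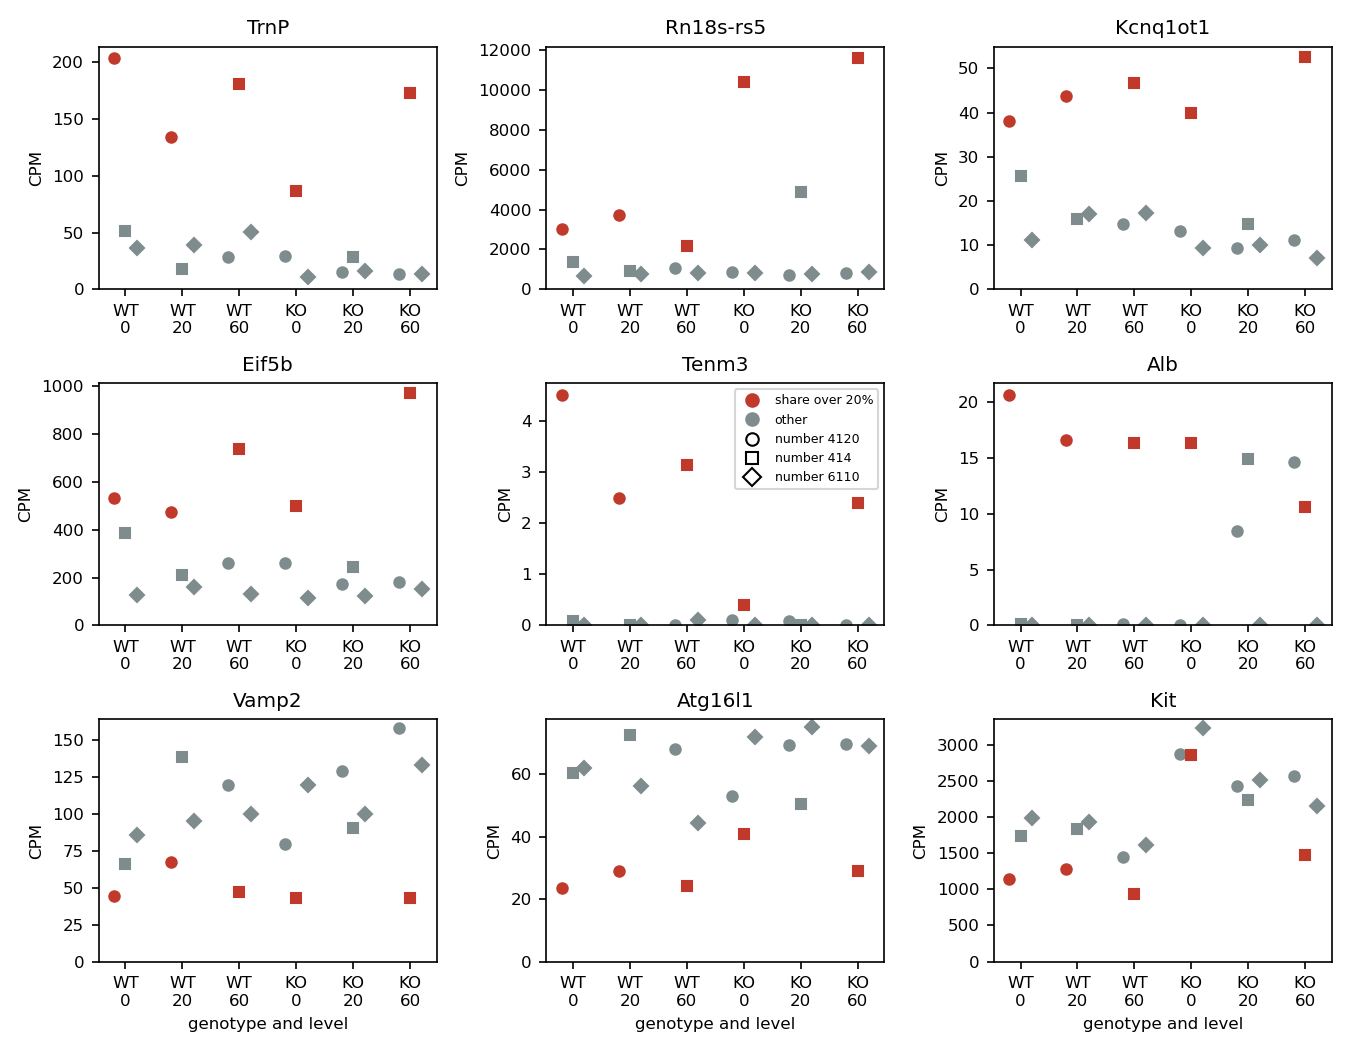
The level of 9 genes in each library is shown in CPM by genotype and level, red for the 5 high-share libraries and grey for the others, with the shape giving the number. TrnP, Kcnq1ot1, Eif5b and Tenm3 are higher, and Atg16l1 lower, in all 5 high-share libraries than in any other library. Tenm3 was listed after its values were seen and passed the filter through the high-share libraries alone, so its separation is not evidence. Alb is at 8.43 to 14.9 CPM in 3 grey libraries, and Kit in the high-share KO 0 library lies among the grey KO points.

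The largest falls of genes of at least 5 CPM were smaller than the rises, with log2 differences of −1.75 to −1.17. Vamp1, a vesicle SNARE of regulated secretion, was at 4.89 CPM in KO 0, 5.54 in WT 20, 1.52 in KO 60, 3.99 in WT 0 and 6.48 in WT 60, against a lowest value of 5.55, a median of 13.4 and a highest value of 23.8 CPM in the others (−1.75 ± 0.31 SE, adjusted p = 0.003). The related Vamp2 was at 43.0 to 67.7 CPM against 66.2 to 158 CPM (−1.13 ± 0.17 SE, adjusted p = 0.001). Atg16l1, which directs lipidation of LC3 in autophagy, was at 23.7 to 40.7 CPM against 44.3 to 74.8 CPM, with no overlap (−1.11 ± 0.15 SE, adjusted p = 0.001). Vamp2 and Atg16l1 were chosen after their values were seen. Sema4c, a transmembrane semaphorin, was at 13.9 to 37.8 CPM against 27.8 to 113 CPM (−1.48, adjusted p = 0.003). Slc27a1, a fatty acid transporter, was at 87.1 to 215 CPM against 153 to 465 CPM (−1.17, adjusted p = 0.016).

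The chemokine receptor Cxcr4 was at 46.2 CPM in KO 0, 20.8 in WT 20, 20.0 in KO 60, 10.5 in WT 0 and 10.8 in WT 60, against 16.8 to 127 CPM with a median of 50.6 (−1.27 ± 0.32 SE, adjusted p = 0.018). The ranges overlapped, and the fit compares each library with its own group. Of the 15 largest falls, 10 kept their call in the blocked fit and 6 were below both other libraries in all 5 groups. Adamts1 and Prss23, which are secreted proteases, Marcksl1, an actin-binding protein, and Cenpf, a kinetochore protein, were among the 5 that lost their call (adjusted p = 0.078 to 0.17). The other falls were Cacng7, Cdc25b, Crisp1, Plppr3, Prrt2 and the microRNA gene Mir3064, at −1.48 to −1.17. All 7 of the largest rises outside the tRNAs kept their call with the block, but several differences were smaller there: Alb had 5.79, Dnm3os 2.86, Bc1 2.22, Lars2 2.39 and Nrp 1.91. Cdc25b was at −0.76 with the block.

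Few nuclear genes of the respiratory chain were called. Beside them, 5.91% of all genes that passed on the other 13 libraries alone rose and 4.18% fell. Of 36 nuclear subunits and assembly factors of complex I, Ndufs3 and Ndufv2 rose, Ndufv1 fell and 33 were not called, with a median log2 difference of −0.10 beside −0.02 over all genes tested. The median of this list was −0.30 in WT and 0.24 in KO. Ndufv2 lost its call with the block (adjusted p = 0.119). Ndufv1, the NADH-binding subunit, was at 40.3 to 44.0 CPM in the high-share libraries and at 49.1 to 82.6 CPM in the others, with no overlap (−0.58 ± 0.11 SE, adjusted p = 0.005). None of the 13 genes of complexes II and III, the 12 of complex IV and the 16 of the ATP synthase was called, with medians of −0.22, −0.15 and −0.28. These medians were −0.24, −0.52 and −0.45 in WT, and −0.09, −0.10 and 0.11 in KO. In the citric acid cycle, 1 of 17 genes fell and 0 rose. This was Idh3b, a subunit of isocitrate dehydrogenase, at 76.0 to 91.5 CPM against 110 to 149 CPM (−0.59, adjusted p = 0.002).

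Among 173 nuclear genes that maintain, express or regulate mitochondria, in 6 lists, 18 rose (10.4%) and 3 fell (1.73%), beside 5.91% and 4.18% of all genes that passed on the other 13 libraries alone, as did all 173. Tfam, which packages mitochondrial DNA and activates its transcription, was at 19.4 to 30.1 CPM against 21.1 to 31.9 CPM (−0.15, adjusted p = 0.388), Polrmt, the mitochondrial RNA polymerase, had a difference of 0.19 (adjusted p = 0.397), Lrpprc, which stabilises mitochondrial mRNAs, 0.16 (adjusted p = 0.48), and Ppargc1a, a coactivator of mitochondrial biogenesis, 0.46 (adjusted p = 0.573). Of 17 genes of mitochondrial DNA maintenance and transcription, 2 rose: Tfb2m, a transcription initiation factor, at 23.3 to 40.0 CPM against 12.03 to 33.1 CPM (0.63, adjusted p = 0.006), and Mterf1a, a termination factor (0.68, adjusted p = 0.028). Of 21 genes of mitochondrial RNA processing and decay, Supv3l1, the helicase of the mitochondrial degradosome, rose (25.2 to 53.9 CPM against 13.4 to 29.3 CPM, 0.88, adjusted p = 0.003) and Fastkd5 fell (−0.63, adjusted p = 0.023). Of 78 mitochondrial ribosomal proteins, 9 rose (11.5%) and 2 fell (2.56%), with rises of Mrpl47 (0.76, adjusted p = 0.005), Mrpl19 (0.54) and Mrps30 (0.47). Of 13 regulators of biogenesis, Ppargc1b (1.11, adjusted p = 0.007) and Prkaa1, a catalytic subunit of AMP kinase (0.31, adjusted p = 0.048), rose. Clpp, the matrix protease, rose by 0.50 (adjusted p = 0.015) and Timm9, an import chaperone, by 0.68 (adjusted p = 0.034), the only calls of 27 import and chaperone genes. Mterf1a, Prkaa1 and Timm9 lost their call with the block (adjusted p = 0.109, 0.107 and 0.129). Of 17 genes of mitophagy and dynamics 2 were called, both higher, with Phb, a scaffold protein of the inner membrane, among them. With the block there were fewer calls in these lists: 6 mitochondrial ribosomal proteins rose and 1 fell. Each of the other lists had 1 rise there, and RNA processing and decay also had 1 fall. Over all 17727 genes tested, 1021 rose and 495 fell with the block.

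**Figure D4:**
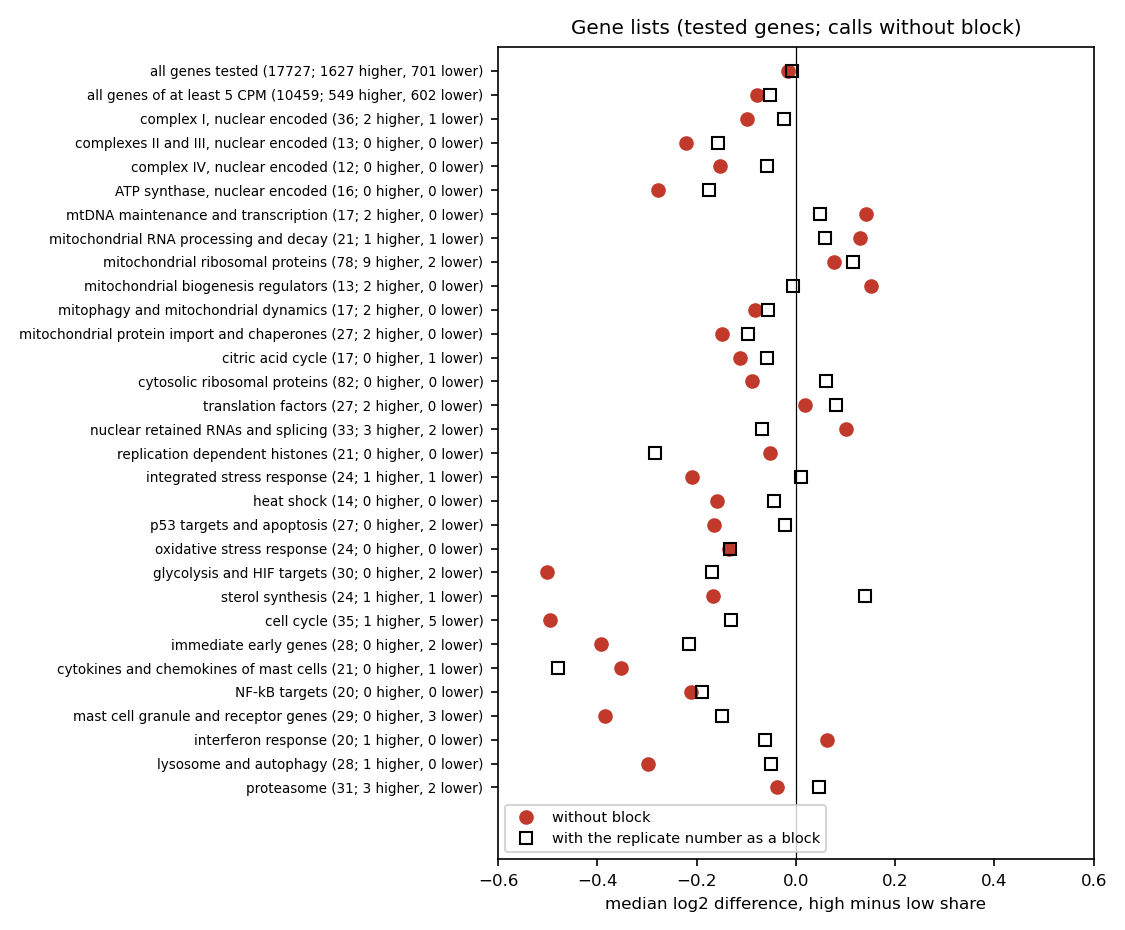
The median log2 difference between the high-share and the other libraries is shown for each gene list without a block (red) and with the replicate number as a block (open squares). The label gives the genes tested and the calls. The medians furthest below 0 without the block, −0.50 for glycolysis and HIF targets and −0.50 for the cell cycle, lie at −0.17 and −0.13 with it.

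In the cytosol, none of 82 ribosomal protein genes was called (median −0.09). This median joins opposite signs, with −0.44 in WT and 0.39 in KO. The shares over all genes that passed on the other 13 libraries alone were 5.91% higher and 4.18% lower. Of 27 translation factors, Eif5b and Eif4g3, a scaffold of cap-dependent initiation (0.86, adjusted p = 0.003), rose and none fell. Of 31 proteasome genes 3 rose and 2 fell, with Psmd1, a large subunit of the regulatory particle, at 56.2 to 91.7 CPM against 28.6 to 50.4 CPM and no overlap (0.88 ± 0.12 SE, adjusted p = 0.001). Psmd3, of the same particle, went the other way (−0.52, adjusted p = 0.011). Among 33 nuclear-retained RNAs and splicing factors, Kcnq1ot1 and Srsf7 rose and Ddx17 (−0.70, adjusted p = 0.009) and Srrm2 fell. Meg3, an imprinted RNA, was also called higher but passed the filter through the high-share libraries alone.

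Most stress and growth lists held few calls. For comparison, 5.91% of all genes that passed on the other 13 libraries alone rose and 4.18% fell. Over all genes of at least 5 CPM, 6231 of 10459 had a negative difference, with a median of −0.08. Of 30 glycolysis genes and HIF targets, 28 had a negative difference and 2 were called, Slc16a3, a lactate exporter (−0.80, adjusted p = 0.027), and Aldoc, an aldolase (−1.14, adjusted p = 0.049). With the block neither was called (adjusted p = 0.116 and 0.299), but 3 other genes of the list fell and 0 rose. Of 35 cell cycle genes, 5 fell (14.3%) and 1 rose (2.86%), with a median of −0.50. With the block 2 fell and 2 rose, with a median of −0.13. The falls were Cdc20 (−0.997, adjusted p = 0.03), Rrm1 (−0.62, adjusted p = 0.014), Aurkb, Cenpf and E2f1, and the rise was Ccne2, a cyclin of S-phase entry, at 2.68 to 4.81 CPM against 0.28 to 2.37 CPM (2.0, adjusted p = 0.003). Of 24 genes of the integrated stress response 1 rose and 1 fell, of 27 p53 targets and apoptosis genes 2 fell, and of 14 heat shock genes and 24 oxidative stress genes none was called.

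Most mast cell genes were not called, and those called fell. Of 29 granule and receptor genes, 3 fell (10.3%) and none rose (median −0.39, and −0.15 with the block). Over all genes that passed on the other 13 libraries alone, 4.18% fell. Of 10 mast cell markers, 2 fell (20%), which are also in the list of 29 (median −0.43, and −0.19 with the block). Kit, the receptor for stem cell factor, was at 2857 CPM in KO 0, 1280 in WT 20, 1468 in KO 60, 1143 in WT 0 and 940 in WT 60, against a lowest value of 1447, a median of 2144 and a highest value of 3232 CPM in the others (−0.54 ± 0.13 SE, adjusted p = 0.014). It was below both other libraries of its group in 5 of 5 groups, although the ranges overlapped. Il1rl1, the IL-33 receptor, fell by 0.44 (adjusted p = 0.041, and 0.115 with the block) and Ndst2, which sulfates heparin, by 0.66 (adjusted p = 0.003). Cpa3, the granule carboxypeptidase, had a difference of −0.50 (adjusted p = 0.376). In these bulk libraries fewer cells of a type and less RNA per cell cannot be told apart.

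Of 28 immediate early genes, Jun (−0.68, adjusted p = 0.028) and Dusp5, a MAP kinase phosphatase (−0.84, adjusted p = 0.024), fell and none rose, and of 21 tested cytokines and chemokines of mast cells Tnf fell (−1.01, adjusted p = 0.035). With the block Dusp5 and Tnf were not called (adjusted p = 0.114 and 0.113), but 1 other gene of the cytokine and chemokine list fell. Without the block, falls were 7.14% of the immediate early genes and 4.76% of the cytokines and chemokines. They were 4.18% of all genes that passed on the other 13 libraries alone. Of 20 NF-kB targets none was called. These genes differ between the levels, so the ranges over all groups say little: Tnf was at 2.27 to 428 CPM in the high-share libraries and at 3.71 to 1691 CPM in the others. Within its group the high-share library was lowest in 4 of 5 groups for Tnf and for Dusp5, and in 5 of 5 for Jun.

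Markers of other blood cells were mostly at overlapping summed levels in the sets. Summed levels in the high-share and the other libraries were 4.25 to 23.0 and 1.98 to 35.4 CPM for 14 neutrophil and precursor markers, 53.8 to 213 and 58.0 to 312 CPM for 14 of macrophages and monocytes, 49.1 to 110 and 52.1 to 139 CPM for 11 of erythroid cells, 363 to 1534 and 396 to 1478 CPM for 6 of basophils, and 211 to 382 and 247 to 468 CPM for 9 stromal and endothelial markers. They were 3637 to 7943 and 3220 to 8496 CPM for 7 megakaryocyte markers, 4.28 to 21.6 and 3.31 to 11.0 CPM for 6 of eosinophils, 1.18 to 5.23 and 0.67 to 1.46 CPM for 7 of B cells, and 0.98 to 2.56 and 0.48 to 2.47 CPM for 8 of T and NK cells. Marco, Car1, Ear1 and Cd3g had no count in any library. Ly6c2, Hba-a2, Hbb-bs, Ebf1 and Cd3e were called higher and Vwf lower, and the first 5 stayed under 4 CPM in every library. Of these, Hba-a2, Ebf1 and Cd3e passed the filter through the high-share libraries alone, and Ly6c2 and Hbb-bs lost their call with the block (adjusted p = 0.299 and 0.129). The median log2 difference of the tested markers was −0.80 for neutrophils and precursors (11 tested), 0.53 for macrophages and monocytes (9), 0.61 for erythroid cells (7), −0.62 for megakaryocytes (4) and 0.82 for eosinophils (4). With the block these medians were 0.28, 0.17, 0.50, −0.14 and 0.61, so the first changed sign. Signs also differed between WT and KO for erythroid cells (−0.49 and 0.67) and eosinophils (−0.51 and 1.51), but not for the others. The part of other cells in the results above was not tested.

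A set of liver transcripts also moved with the high-share libraries. Alb, which encodes serum albumin, was the largest rise of all genes of at least 5 CPM. It was at 16.3 CPM in KO 0, 16.6 in WT 20, 10.6 in KO 60, 20.6 in WT 0 and 16.3 in WT 60, and at a median of 0 and a highest value of 14.9 CPM in the others, 5 of which held any count (log2 difference 7.40 ± 1.48 SE, adjusted p = 0.005). Ttr, Mup20, Serpina1a and Fgb, all secreted by hepatocytes, followed the same libraries. Ttr had counts in 8 libraries, the 5 high-share ones and KO 20 numbered 4120 and 414 and KO 60 numbered 4120, and in none of the other 10. Over 16 such genes, a list put together after the values were seen, the 8 libraries held 331 to 951 counts each and the other 10 held 11 to 33. In WT the 3 libraries that held Ttr were the 3 high-share ones, and in KO 0 the high-share library alone held it. In these groups the 2 properties cannot be told apart, so a fit separates them only through KO 20 and KO 60.

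With a term for the libraries that hold Ttr beside the high-share term, 0% of genes were called between the sets in edgeR (0 of 17727, with 2101 at an unadjusted p under 0.05), against 2328 without it. Of those 2328 genes, 2268 kept their sign. TrnP, given without a test, had a log2 difference of 2.66 in that fit. Kcnq1ot1 had one of 1.60, Eif5b one of 1.47, Atg16l1 one of −0.99 and Alb one of −0.64, each with an adjusted p from 0.249 to 0.796. Within the 8 libraries that hold Ttr, with additive terms for genotype and level, 0 genes were called and 2052 were at an unadjusted p under 0.05. The Ttr term itself called 22 genes, all higher, beside the high-share term over 18 libraries, and 0 among the other 13 libraries (996 at an unadjusted p under 0.05). Ttr, which defines this term, and the liver transcripts that follow it stayed among the genes tested. Higher calls of such genes follow from the definition, so the 22 are not evidence. The labels give no batch, lane or date.

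The number of calls changed when the replicate numbers entered the fit or were left out. With the number as a block, 1516 genes (8.55%) were called, 1021 higher and 495 lower, and 1224 of the 2328 genes were called in the same direction. The 1021 were not restricted to genes that passed the filter on the other 13 libraries alone. Leaving out a whole number removed nearly all calls: 0 remained without number 4120, 4 without 414 and 31 without 6110, with 4038, 4206 and 3667 genes at an unadjusted p under 0.05 against 5112 with all. Of the 2328 genes, 2328, 2318 and 2328 kept their sign in these fits, which share libraries with the full one. Number 6110 holds no high-share library, and fewer libraries lower the counts by themselves. Leaving out 1 library left 923 calls without KO 60 numbered 414 and 3343 without KO 0 numbered 4120. Among the other 13 libraries alone, with log2 of the share as a continuous term, 0 genes were called (911 at an unadjusted p under 0.05). At a threshold of 15%, which adds WT 0 numbered 414 and WT 60 numbered 6110 to the high set, 359 genes were called.

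The difference was seen in both genotypes, which have no library in common. In WT, with 3 high-share libraries of 9, 1093 genes (6.17%) were called, 896 higher and 197 lower. In KO, with 2 of 9, 221 (1.25%) were called, 176 higher and 45 lower. The 176 were not restricted to genes that passed the filter on the other 13 libraries alone. Of the 896 genes that rose in WT, 468 passed the filter on the other 13 libraries alone. Of these, 414 had a positive difference in KO (88.5%), with a median log2 difference of 1.34 in WT and 0.73 in KO, and 61 were called there. Of the 197 that fell in WT, all of which passed it, 163 had a negative difference in KO (82.7%), with medians of −0.92 and −0.43. Over all 16773 genes that passed it, 62.6% had the same sign in both. With the block 255 genes were called in WT and 0 in KO, with 3066 in KO at an unadjusted p under 0.05. Leaving out 1 library could end these calls: none remained in WT without WT 0 numbered 4120, and none in KO without any 1 of the 3 KO 60 libraries.

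The test of the difference between the genotypes in this contrast called 0 genes in edgeR, with 1605 at an unadjusted p under 0.05, and 46 in DESeq2. The 3 genes with the smallest p were Tmtc2 (KO minus WT 1.30 on the log2 scale), Fam98a (−1.30) and Aif1 (−4.62), each with an adjusted p of 0.448. Neither this test nor the smaller number of calls in KO settles whether the difference is smaller there.

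The study's own comparisons were recomputed with and without the 5 libraries. Labelled KO against labelled WT at 0, 48 genes (0.271%) were called with 18 libraries and 22 (0.124%) with 13, of which 20 were shared, all with the same sign. At 20, where the KO group has no high-share library, the counts were 33 (0.186%) and 30 (0.169%), with 22 shared. At 60 they were 46 (0.259%) and 20 (0.113%), with all 20 shared. For 60 against 0, KO gave 428 (2.41%) and 89 (0.502%), with 88 shared, and WT gave 38 (0.214%) and 0 (0%), with 1345 of the latter's genes at an unadjusted p under 0.05. Fewer libraries in the groups lower the counts by themselves, and this was not separated from the share.

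**Figure D5:**
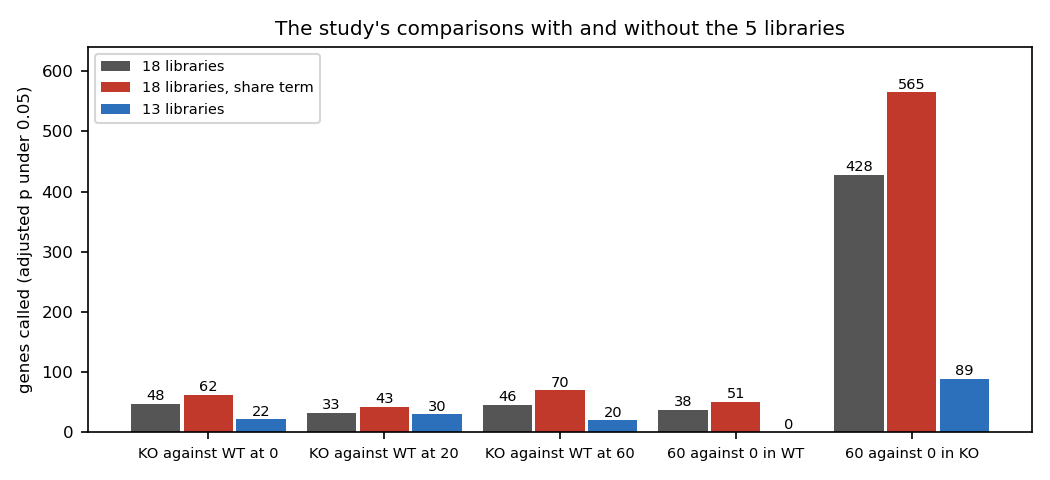
Bars give the genes called at an adjusted p under 0.05 in each comparison of the study, with 18 libraries (grey), with 18 libraries and a term for a share over 20% (red), and with the 13 libraries at or under 20% (blue). The red bars are the highest in each comparison, and WT 60 against 0 has 0 calls with 13 libraries.

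With all 18 libraries and a term for the high-share set, each of these comparisons had more calls, not fewer: 62, 43 and 70 for KO against WT at 0, 20 and 60, 51 for 60 against 0 in WT and 565 in KO. With the replicate number as a block they were 206, 118, 190, 208 and 1041. These comparisons use the same libraries as the high-share contrast.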

How the data were processed

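Per the labels' protocols, total RNA of BMMC was made into mRNA libraries with a TruSeq kit. The build mm10 and the tools StringTie 2.1.3b, HISAT2 2.1.0, FastQC 0.11.7 and bcl2fastq 2.20.0 are listed, without their roles, in the submitters' processing notes. For strand and for reads with several matches, the setting is not given in the sources used. The authors deposited read counts for 45777 genes, which were used here, beside FPKM and TPM, which were not used here. All 54 value columns were mapped to libraries by their names.

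The share was computed from the deposited counts. Without the 15 genes, genes were kept by filterByExpr on the 6 groups (17727), scaled by TMM and tested with the quasi-likelihood test of edgeR 4.0.16 (R 4.3.3, limma 3.58.1), with 6 group means and 1 term for a share over 20%, on 11 residual degrees of freedom, calling adjusted p under 0.05. Alternatives included DESeq2 1.42.0. Single values were tested by an exact permutation of the high-share label within groups. Positions and biotypes came from RefSeq GRCm38.p6 (99.8% of genes), and transcript GC and length from GENCODE. Every symbol of the 41 gene lists was found by symbol or synonym.

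The libraries, lists and rules were chosen with earlier results of these data known. Named genes were the 15 largest rises and 15 largest falls among called genes of at least 5 CPM with a symbol that is no predicted model, the 3 smallest p of each list, of which those described are printed, and Tfam, Polrmt, Lrpprc, Ppargc1a, Sirt6, Kit, Cpa3, Xist and Ddx3y.

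Whether the numbers pair libraries was checked by correlating their deviations from the group means. All 3 pairs were above 0.1 for KO against WT at 60 (0.433 to 0.537) and for KO 60 against 0 (0.314 to 0.654), and not for the other 3 comparisons. The 18 pairs of libraries within groups differed by 77.2 to 218 times the counting variance, so none was a copy. Counts among genes that pass the filter on the other 13 libraries alone were added after the data were seen. Some named genes are not reported here. The fits were tested on simulated data.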

Additional observations from a re-analysis of the deposited data

How the results depend on the processing

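The 2328 genes called between the high-share and the other libraries numbered 2181 to 3366 under DESeq2, scaling by library size, TMM with the 15 genes, no filter, limma-voom with each number within a genotype as a random effect, log2 of the share as a term, a threshold of 30%, additive terms, thinning to equal depth and removal of the tRNA genes. They numbered 761 at an adjusted p under 0.01, 1157 with a mean of at least 1 CPM, 1381 among protein-coding genes and 359 at a threshold of 15%. They numbered 0 with log2 of the share among the 13 libraries, 0 with a term for liver transcripts and 0 within the libraries with liver transcripts. Thinning, the tRNA removal, the 13-library fit, both liver fits and the block within genotype were chosen after the data were seen. Except for the sets with fewer genes or fewer libraries, the cause of a change was not tested.

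In WT (1093) the count was 24 at an adjusted p under 0.01, 211 with a mean of at least 1 CPM, 436 among protein-coding genes, 0 at 15%, 1 among the 13 libraries and 2 with the liver term, and 1803 in DESeq2, 2116 in limma-voom and 1784 with additive terms. In KO (221) it was 0 at an adjusted p under 0.01, 45 among protein-coding genes, 78 in limma-voom, 54 at 15%, 0 at 30%, 1 among the 13 libraries and 0 with the liver term, and 904 in DESeq2, 383 with no filter, 1253 with log2 of the share and 530 with additive terms. The difference between genotypes (0) was 46 in DESeq2, including Tmtc2, Fam98a and Aif1. Without number 414 KO has no high-share library, and within the libraries with liver transcripts WT has no other, so neither gave these counts.

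With the replicate number as a block, the calls were 1516 between the sets, 255 in WT and 0 in KO, and with 1 block per number within each genotype they were 1522, 622 and 1. In the study's comparisons the block gave 206 for KO against WT at 0, 118 at 20 and 190 at 60, and 208 for 60 against 0 in WT and 1041 in KO. For single values the block gave 419 genes at 1 CPM or more, 0.709 percentage points for the 50 most counted genes (−0.339 without it), −61.0 bases of length (21.7), 1.28 points of rRNA and 0.106 points of ND6 (−0.023).

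Without the 5 libraries the study's comparisons gave 22, 30 and 20 calls at 0, 20 and 60, and 0 in WT and 89 in KO for 60 against 0. DESeq2 gave 254, 122, 233, 265 and 993. The high-share term gave 70 at 60, and log2 of the share gave 69 in WT and 679 in KO. The number of genes at 1 CPM or more differed by 434 at a threshold of 15% and by 196 at 5 CPM.

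Leaving out 1 library, or all libraries of 1 number, gave 0 to 3343 calls between the sets, 0 to 1541 in WT, 0 to 926 in KO and 0 to 25 for the difference between genotypes. The 25 came without KO 20 numbered 414. For KO against WT the ranges were 27 to 52 at 0, 21 to 44 at 20 and 28 to 55 at 60. For 60 against 0 they were 0 to 70 in WT, with 0 without WT 60 numbered 6110, and 178 to 487 in KO, with 178 without KO 0 numbered 4120. The difference in counts outside the 15 genes ran from −14890100 to −12338500, that in genes at 1 CPM or more from 467 to 717, that of the 50 most counted genes from −0.940 to 0.0507 points, that of length from −21.8 to 65.3 bases, that of rRNA from 1.30 to 2.43 points and that of ND6 from −0.0592 to 0.0498 points.

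Of the named genes that were called, 75 kept their call in DESeq2, 56 with the block, 23 at 15% and none with the liver term. Signs turned for Alb with the liver term (−0.64), and within the libraries with liver transcripts for Alb (−0.21) and Hba-a2 (−0.25). Among the 13 libraries they turned for Cacng7 (0.17), Jun (0.46) and Tnf (0.20). The KO minus WT differences of Fam98a (0.0645) and Tmtc2 (−0.10), which were not called in the main fit, also turned there. Of the genes that were not called, Cpa3 was 0.11 with the block, 0.24 with the liver term and 0.62 within the libraries with liver transcripts, and ran from −1.32 to 0.0857 over the libraries or numbers left out. Lrpprc was −0.0205 with the block, −0.0545 in limma-voom, −0.20 with the block within genotype and −0.0232 with the liver term, and ran from −0.0109 to 0.33. Malat1 was 0.00618 under scaling by library size, 0.16 at 15% and 0.26 within the libraries with liver transcripts, and ran from −0.22 to 0.22. Neat1 was 0.0687 in limma-voom, 0.30 with the block within genotype and 0.12 with the liver term. Tfam was 0.0116 among the 13 libraries, 0.0311 with the liver term and 0.21 within the libraries with liver transcripts. Ppargc1a ran from −0.14 to 0.81, and Sirt6 was 0.0838 with the liver term.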
